A study of Mus musculus with 5 samples.

Results

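The imprinted Dlk1-Meg3 domain on distal chromosome 12 of the mouse held 14 CTCF peaks of the 22756 in the list, placed in short runs between long stretches without a peak. Its 7 member genes are Begain, Dlk1, Meg3, Rtl1, Rian, Mirg and Dio3. The region ran from 200 kb before the first member to 200 kb after the last, at chr12:108832181-110481097 on mm10, and was 1.649 Mb long. A peak belonged to it if its midpoint lay inside. CTCF, the zinc finger protein of insulators and chromatin loop anchors, had been mapped by chromatin immunoprecipitation and sequencing (ChIP-seq) in NIH3T3, a mouse embryonic fibroblast line.

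The libraries were 2 CTCF precipitations from cells given doxycycline for 6 h, 2 CTCF precipitations from cells without doxycycline, and 1 input from cells without it. The labelled dose was 500 ng/µL, a unit that was not checked here. Each library came from the same line, labelled 3T3 iCDX2, which stably carried H2B-mCherry, the transactivator rtTA3G and a TRE3G-driven gene for CDX2, a homeobox factor of the intestine and the trophectoderm. The sources used here do not say whether the line is a clone or whether replicates came from separate cultures. Libraries of this layout would allow CTCF positions to be compared with and without doxycycline. That comparison was not made, because the single list analysed merged both conditions and ties no interval to a library. It gave positions without heights or scores, so depth is unknown, there is no replicate spread and no test was run. A place without a peak may have lacked reads, and the parental chromosomes were not told apart.

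In an imprinted domain, genes are expressed from the chromosome of 1 parent. In the Dlk1-Meg3 domain the protein-coding genes Dlk1, Rtl1 and Dio3 are known for expression from the paternal chromosome, while the non-coding RNAs Meg3, Rian and Mirg, with the microRNAs and small nucleolar RNAs (snoRNAs) encoded along them, come from the maternal chromosome. A differentially methylated region between Dlk1 and Meg3 controls this choice, and CTCF is known at other imprinted domains, such as H19-Igf2, for binding the unmethylated parental copy. Dlk1 encodes a Notch-ligand-like membrane protein that holds back fat cell differentiation, Rtl1 a retrotransposon-derived protein needed in the placenta, and Dio3 the deiodinase that inactivates thyroid hormone. Begain, at the proximal edge, encodes a protein of the synapse.

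The single peak between Dlk1 and Mirg lay inside Rian, between microRNA genes. The mature sequences next to it are therefore printed from RefSeq (GRCm38.p6), together with those at the edges of the neighbouring gene bodies. Mir341, Mir1188 and Mir370 are the microRNA genes within Rian. Mir673 and Mir136 are the first and the last within the annotated body of Rtl1, and Mir453 and Mir3072 the first and the last within Mirg. Each sequence runs 5′ to 3′, with the seed (bases 2 to 8) in capitals.
mmu-miR-673-5p: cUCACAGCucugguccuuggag
mmu-miR-673-3p: uCCGGGGCugaguucugugcacc
mmu-miR-136-5p: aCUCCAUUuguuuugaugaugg
mmu-miR-136-3p: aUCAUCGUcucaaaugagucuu
mmu-miR-341-5p: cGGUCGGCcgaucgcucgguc
mmu-miR-341-3p: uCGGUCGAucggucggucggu
mmu-miR-1188-5p: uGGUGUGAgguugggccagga
mmu-miR-1188-3p: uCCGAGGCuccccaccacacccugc
mmu-miR-370-5p: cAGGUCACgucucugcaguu
mmu-miR-370-3p: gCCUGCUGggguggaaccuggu
mmu-miR-453: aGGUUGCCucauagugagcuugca
mmu-miR-3072-5p: aGGGACCCcgagggagggcagg
mmu-miR-3072-3p: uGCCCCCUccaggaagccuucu
The table had 116 mature entries in the region, of which 115 differed in sequence, since miR-3070-5p is listed for both Mir3070a and Mir3070b. They had 106 distinct seeds, and 9 of these were shared by more than 1 distinct sequence. The seed of miR-370-5p was shared with miR-1193-3p, and that of miR-453 with miR-496a-5p. All 62 microRNA genes of the region had a mature sequence in the table.

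No peak overlapped the promoter of a member in the RefSeq table, which gives 250 bases before to 50 after each start site. These windows were searched on both strands for the core of the CTCF motif, written as CC, any 3 bases, AG, any 2 bases and GGC, 12 bases in all. Rian had 1 match, on its own strand, beginning 7 bases after the start site. Dio3 had 1 match on the opposite strand, beginning 14 bases after its start site. The windows of Dlk1, Meg3, Mirg and Begain had none, and Rtl1 was not in the table. Among the 6 members in the table, Rian had the start site closest to a peak. The start site of Rtl1 was not measured. The promoters of Rian, of Dio3, which had a match with no peak listed, and of Meg3 at its first start site are shown. They are given on the plus strand with matches in capitals.
Rian, chr12:109603695-109603994: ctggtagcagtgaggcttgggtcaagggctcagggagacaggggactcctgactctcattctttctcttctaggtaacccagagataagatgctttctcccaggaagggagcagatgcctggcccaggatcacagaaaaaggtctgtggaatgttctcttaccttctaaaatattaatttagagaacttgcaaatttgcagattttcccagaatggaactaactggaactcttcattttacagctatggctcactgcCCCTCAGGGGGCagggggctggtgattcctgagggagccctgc
Dio3, chr12:110278980-110279279: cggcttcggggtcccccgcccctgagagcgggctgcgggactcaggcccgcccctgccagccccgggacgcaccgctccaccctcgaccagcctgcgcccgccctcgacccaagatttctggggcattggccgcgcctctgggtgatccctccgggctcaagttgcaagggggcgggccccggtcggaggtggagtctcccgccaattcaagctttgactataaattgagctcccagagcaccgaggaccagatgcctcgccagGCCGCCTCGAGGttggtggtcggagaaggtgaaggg
Meg3, chr12:109540746-109541045: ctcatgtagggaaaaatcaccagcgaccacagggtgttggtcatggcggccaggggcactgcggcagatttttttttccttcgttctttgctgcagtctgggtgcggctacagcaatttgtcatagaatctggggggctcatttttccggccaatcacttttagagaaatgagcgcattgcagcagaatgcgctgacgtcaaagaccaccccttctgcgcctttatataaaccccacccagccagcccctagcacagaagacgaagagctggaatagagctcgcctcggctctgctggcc
The same core occurred in 2828 of 32851 promoters (8.61%) over chromosomes 1 to 19, X and Y, and in 563 of the 2221 with a peak within 1 kb of their start site (25.3%). Of the 39 start sites in the region, 4 had it (10.3%), at Dio3, Dio3os, Gm34081 and Rian. Such a match is a run of letters and not a site. The sequence under the peaks themselves was not analysed here.

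**Figure D1:**
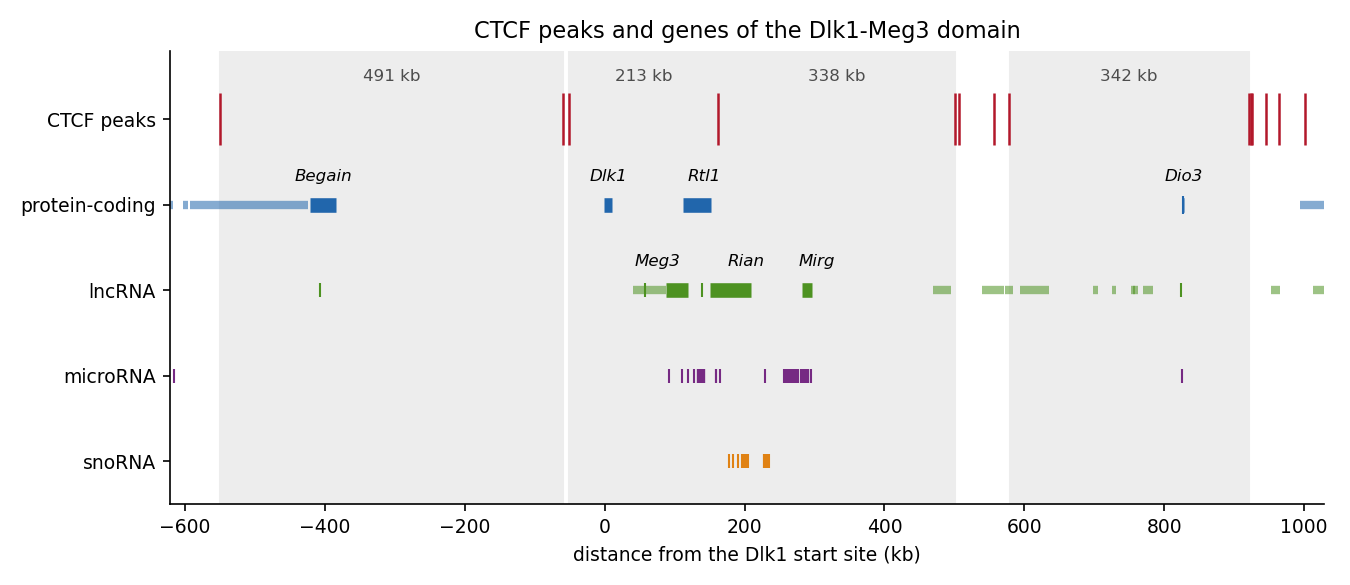
CTCF peaks (red ticks) and annotated genes of the region, by distance in kb from the start site of Dlk1; thick labelled bars are the 7 member genes, paler bars are other genes, and grey marks the 4 longest stretches without a peak with their lengths in kb. Begain, Dlk1, Meg3, Rtl1, Mirg and Dio3 lie in grey stretches, and 1 peak lies inside Rian.

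The 14 peaks formed 2 denser runs on the Dio3 side and a few scattered peaks on the Begain side. Before Begain there was 1 peak in 200 kb, of 287 bp at chr12:108902957-108903243, inside Wdr25, a WD-repeat gene. It lay 129 kb from Begain. From Begain to Dlk1 there were 2 peaks in 420 kb, of 273 bp at chr12:109393853-109394125 and of 240 bp at chr12:109401243-109401482. Dlk1 was the nearest gene of both, at 58.5 and 51.1 kb, and both lay upstream of it, since Dlk1 is on the plus strand.

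From the start of Dlk1 to the end of Mirg, 297 kb that hold 5 of the 7 members, there was 1 peak, of 244 bp at chr12:109614640-109614883. It lay within the body of Rian, 10.8 kb past the Rian start site and 18.7% of the way along the gene. Exons and introns were not told apart. Mir1188 ended 2.82 kb before its midpoint and Mir370, printed above, began 3.5 kb after it. The first snoRNA gene along Rian, Gm24564, began 16.3 kb after the midpoint. The 77.7 kb between Dlk1 and Meg3, where the controlling methylated region of the domain is known to lie, had no listed peak.

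Between Mirg and Dio3, 530 kb with long non-coding RNA genes and no protein-coding gene, 4 peaks lay within 78.6 kb. The peaks at chr12:109953029-109953232 (204 bp) and chr12:109958795-109959057 (263 bp) were closest to the non-coding gene model Gm34554, at 5.65 and 11.4 kb. Those at chr12:110009226-110009451 (226 bp) and chr12:110031421-110031664 (244 bp) lay inside the gene models Gm34667 and Gm40574. The run ended 248 kb short of Dio3.

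After Dio3, 6 peaks lay within 81.1 kb, and the first of them was 92.5 kb past the gene. A group of 3 peaks came first, of 322 bp at chr12:110373424-110373745, 204 bp at chr12:110376656-110376859 and 248 bp at chr12:110377851-110378098. Their nearest gene was the non-coding gene model Gm40577, at 32.0, 28.8 and 27.6 kb. Gm40577 was also nearest to the peak of 257 bp at chr12:110398470-110398726, at 7.0 kb, and held the peak of 289 bp at chr12:110416314-110416602 in its body. The last peak, of 322 bp at chr12:110454194-110454515, lay inside Ppp2r5c, which encodes a regulatory subunit of the phosphatase PP2A. A member was the nearest gene of 3 of the 14 peaks, namely of the pair before Dlk1 and of the peak in Rian. Among protein-coding genes alone, a member was nearest to 7 peaks, with Rtl1 in the place of Rian and Dio3 nearest to the 4 peaks before it, at 248 to 326 kb.

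Outside the region, the next peak on the Begain side lay 4.63 kb before the region's start. It was of 271 bp at chr12:108827420-108827690, inside Slc25a29, a mitochondrial carrier gene. On the Dio3 side the next peak, of 241 bp at chr12:110598598-110598838, lay 118 kb after the region's end. Widths inside the region ran from 204 to 322 bp with a median of 252.5 bp, against 257 bp on chromosome 12 and 262 bp in the whole list. Of the 14 peaks, 8 were narrower than the median of the list, among them the peak inside Rian at 244 bp.

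The 4 longest of the 13 stretches between neighbouring peaks held 6 of the 7 members whole and made up 1.384 Mb, or 83.9% of it. The longest was 491 kb, from the peak in Wdr25 to the first peak before Dlk1, and held Begain. Its 4 whole genes were Begain, Gm52002 and the pseudogenes Gm18405 and Mif-ps7. The next, of 342 kb, ran from the peak in Gm40574 to the first peak after Dio3. It held Dio3, its antisense neighbour Dio3os, 6 further long non-coding genes and 1 microRNA gene.

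Another stretch, of 338 kb, followed the peak in Rian and held Mirg, 41 microRNA genes and the 19 snoRNA genes of the region. The fourth, of 213 kb, lay between the second peak before Dlk1 and the peak in Rian. It held Dlk1, Meg3 and Rtl1 whole, with 19 microRNA genes. The Rian peak was thus the only listed one between 51.1 kb before Dlk1 and 204 kb past the end of Mirg.

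The other 9 stretches were shorter, at 0.991 to 50.2 kb, and most lay in the runs on either side of Dio3. Those of 50.2 and 37.6 kb were still longer than the median stretch on chromosomes 1 to 19, 32.3 kb. Near Dlk1, 7.12 kb separated the 2 upstream peaks. In the run before Dio3 the stretches were 5.56, 50.2 and 22 kb, and in the run after it 2.91, 0.991, 20.4, 17.6 and 37.6 kb. At the edges, 70.8 kb lay between the region's start and its first peak and 26.6 kb between its last peak and its end.

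The long stretches were a minority of all stretches but held much of the sequence. The median stretch of the region was 22 kb and its upper quartile 213 kb, against 49.5 and 149 kb on chromosome 12 and 32.3 and 92.7 kb on chromosomes 1 to 19. Of the 22535 stretches on chromosomes 1 to 19, 4.09% were at least as long as the 491 kb around Begain, 6.49% as the 342 kb around Dio3, 6.59% as the 338 kb around Mirg and 11% as the 213 kb around Dlk1 and Meg3. Since long stretches hold many bases, 42.1%, 51.3%, 51.7% and 62.6% of all bases between peaks lay in stretches at least that long. On chromosome 12 itself the shares of stretches, in the same order, were 7.54%, 10.7%, 10.9% and 17.7%, and those of bases 50.6%, 59%, 59.6% and 71.3%.

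**Figure D2:**
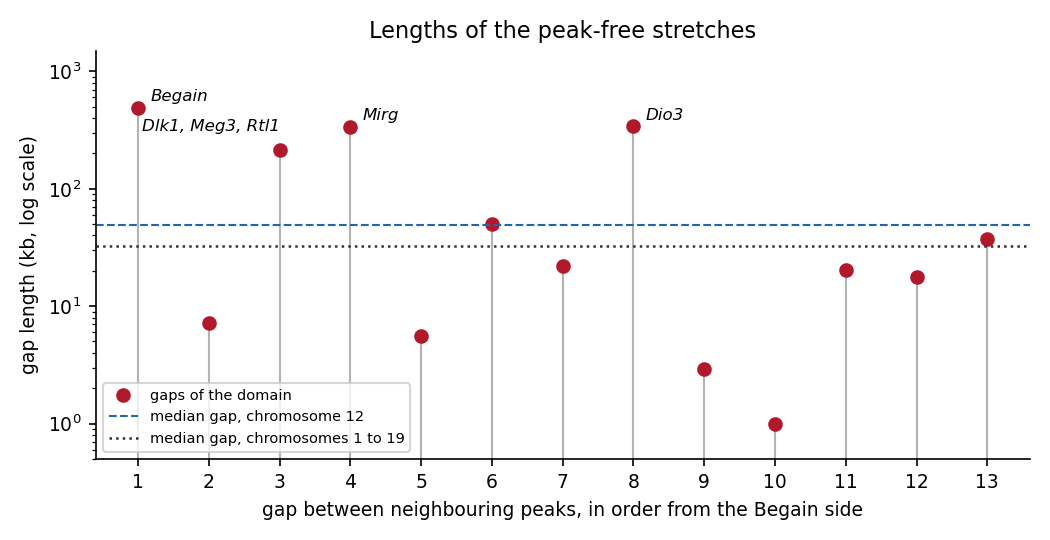
Length in kb, on a log scale, of each of the 13 stretches between neighbouring peaks (points), numbered from the Begain side, with the median stretch of chromosome 12 (dashed, 49.5 kb) and of chromosomes 1 to 19 (dotted, 32.3 kb). The 4 labelled stretches, named for the members they hold whole, are 213 to 491 kb long, and the other 9 are 0.991 to 50.2 kb.

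No member had a peak within 1 kb of either end. Over the genome, 12% of 21779 protein-coding genes and 8.3% of 49603 annotated genes had one. Either share amounts to fewer than 1 gene in 7, so the count of 0 members is not a result about them. The count was 0 of 118 for all genes touching the region, which share their surroundings and are not separate observations. Of the 39 start sites in the promoter table within the region, 0 had a peak within 1 kb, against 6.76% of 32851 start sites in all. The closest was that of Gm40577, 1.61 kb from a peak.

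Within 10 kb of the gene body, 1 of the 7 members had a peak. This was Rian, and Rtl1 came next at 10.3 kb, just past the limit. Among the protein-coding members the count was 0 of 4, beside 50.8% of protein-coding genes over the genome. Among all 49603 annotated genes the share was 36.2%. Begain, Dlk1, Rtl1 and Dio3 have bodies of 36.1, 10.9, 39.5 and 1.87 kb, and Meg3, Rian and Mirg of 30.7, 57.8 and 14.5 kb. The only peak in a member was in the longest body.

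Of the maternally expressed non-coding genes, Rian held its peak, Meg3 ended 43.0 kb before that same peak and Mirg began 120 kb after it. Meg3 had no peak on its other side for 140 kb. Among the paternally expressed genes, Rtl1 was 10.3 kb from the Rian peak, Dlk1 51.1 kb from its upstream peak and 151 kb from the Rian peak, and Dio3 92.5 kb from the peak after it and 248 kb from the one before it. Begain was 129 kb from the peak in Wdr25 and 326 kb from the pair before Dlk1.

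Apart from Rian, the members lay farther from a peak than the median protein-coding gene, though not at the far end of the range. The median over the members was 51.1 kb, against 9.41 kb over protein-coding genes and 24.9 kb over all annotated genes. The share of protein-coding genes at least as far from a peak was 15.8% for Begain, 19% for Dio3, 25.7% for Dlk1 and 48.8% for Rtl1. Of all annotated genes, 23.6% were at least as far as Mirg and 40.4% as far as Meg3.

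**Figure D3:**
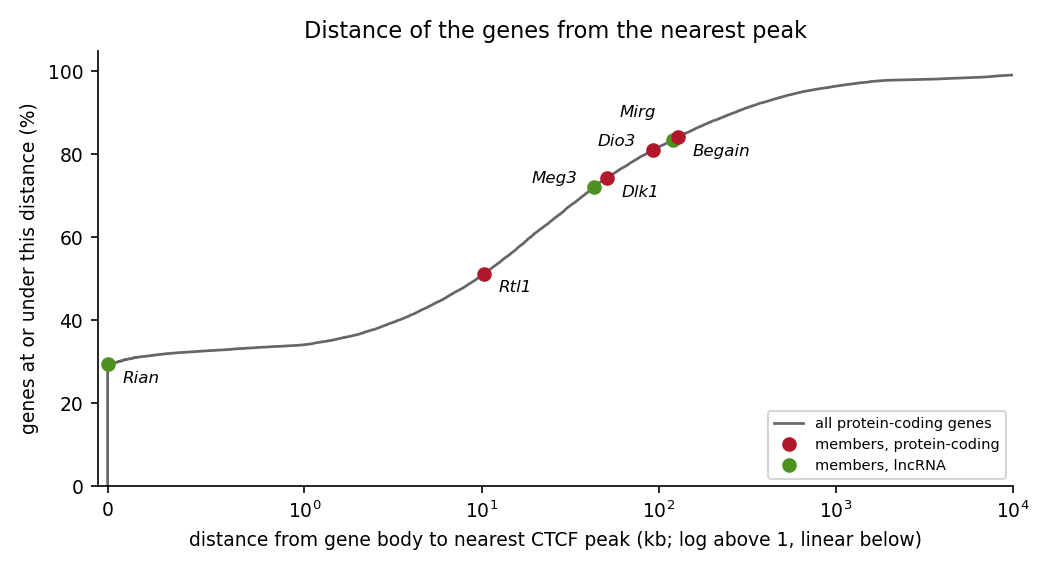
Share of all 21779 protein-coding genes (line, in percent) whose body lies within a given distance of a CTCF peak, with the members placed on it as points. The horizontal axis is in kb, logarithmic above 1 kb and linear below. The non-coding Meg3, Rian and Mirg are placed on the same line. The share at least as far as Meg3 was 27.8% of protein-coding but 40.4% of all annotated genes, and for Mirg 16.5% and 23.6%. Rian lies at 0 kb with its own peak, Rtl1 at 10.3 kb, and Meg3, Dlk1, Dio3, Mirg and Begain between 43.0 and 129 kb.

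Most microRNA genes and all snoRNA genes of the region lay more than 10 kb from a peak. Of 62 microRNA genes in the region, 4 had a peak within 10 kb, beside 32.3% of 1228 microRNA genes over the genome. The stretches before and after the Rian peak held 19 and 41 of the 62, which share their surroundings and are not separate observations. Mir341, Mir1188 and Mir370 had the Rian peak, and Mir345, at the region's proximal edge, had the peak in Slc25a29 outside it. Over the 62 genes the median distance to a peak was 98.4 kb. By position, 2 microRNA genes lay within Meg3, 15 within the annotated body of Rtl1, 3 within Rian and 10 within Mirg. Another 30 lay between Rian and Mirg. A place within a gene body does not say that the microRNA is made from that gene's transcript.

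None of the 19 snoRNA genes, which lay in Rian (11) or between Rian and Mirg (8), had a peak within 10 kb, beside 18.8% of 1330 over the genome. Their distances ran from 16.3 to 73.3 kb. Copies alike in sequence make counts in such clusters uncertain, and neighbours share their surroundings.

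As a whole, the density of the region was 8.49 peaks per Mb (exact 95% Poisson interval 4.64 to 14.2, counting error only), beside 6.58 on chromosome 12 and 9.39 on chromosomes 1 to 19. In windows of the same length laid end to end, the median was 9 peaks on chromosome 12 (quartiles 3 and 16, 70 windows) and 11 on chromosomes 1 to 19 (4 and 21, 1448 windows). The value depended on the flanks. From Begain to Dio3, both included, there were 7 peaks, or 5.6 per Mb (2.25 to 11.5).

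By stretch, the density was 30.0 per Mb after Dio3 (11 to 65.3), 7.55 between Mirg and Dio3 (2.06 to 19.3), 3.37 from Dlk1 to Mirg (0.0853 to 18.8), 4.76 from Begain to Dlk1 (0.576 to 17.2) and 5.0 before Begain (0.127 to 27.9). With 1 to 6 peaks each, these intervals overlapped. The stretch after Dio3, the highest of the 5, had an interval above the value of chromosome 12. It was singled out as the highest, and the interval treats peaks as independent though they lie in a run. An excess was therefore not tested.

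Other imprinted domains, each taken with 200 kb on both sides, differed widely in density. The Dlk1-Meg3 domain, at 8.49 per Mb, lay below the H19-Igf2 and Kcnq1 domain on chromosome 7, where 37 peaks gave 23.4 per Mb (16.5 to 32.2), and the intervals did not overlap. It lay above the Snrpn-Ube3a domain on chromosome 7, where 10 peaks gave 2.38 per Mb (1.14 to 4.37), again without overlap. From the first to the last listed gene, without flanks, the Dlk1-Meg3 domain had 5.6 per Mb (2.25 to 11.5), against 1.58 (0.578 to 3.43) in the Snrpn-Ube3a domain, and those intervals overlapped. Without flanks the H19-Igf2 and Kcnq1 domain had 22.9 per Mb (15.1 to 33.2), still without overlap. Taken with flanks, the interval of the Dlk1-Meg3 domain overlapped that of the Peg10 domain on chromosome 6, with 9 peaks and 4.19 per Mb (1.92 to 7.96). These intervals give counting error only and treat peaks as independent, though peaks lie in runs. The differences were not tested.

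At the genes themselves, 1 of 7 members of the Dlk1-Meg3 domain had a peak within 10 kb. The count was 9 of 14 listed genes in the H19-Igf2 and Kcnq1 domain, 3 of 8 in the Snrpn-Ube3a domain and 2 of 9 in the Peg10 domain. Among all 49603 annotated genes the share was 36.2%. Longer genes collect more peaks, and these counts were not adjusted for gene length. The median distance to a peak was 51.1 kb in the Dlk1-Meg3 domain, against 2.96, 22.7 and 103 kb in the other domains in the same order. A peak at a gene end was seen at 0 genes in the Dlk1-Meg3, H19-Igf2 and Kcnq1, and Peg10 domains and at 1 gene in the Snrpn-Ube3a domain. The longest stretch without a peak was 491 kb in the Dlk1-Meg3 domain, against 310 kb, 1670 kb and 787 kb.

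**Figure D4:**
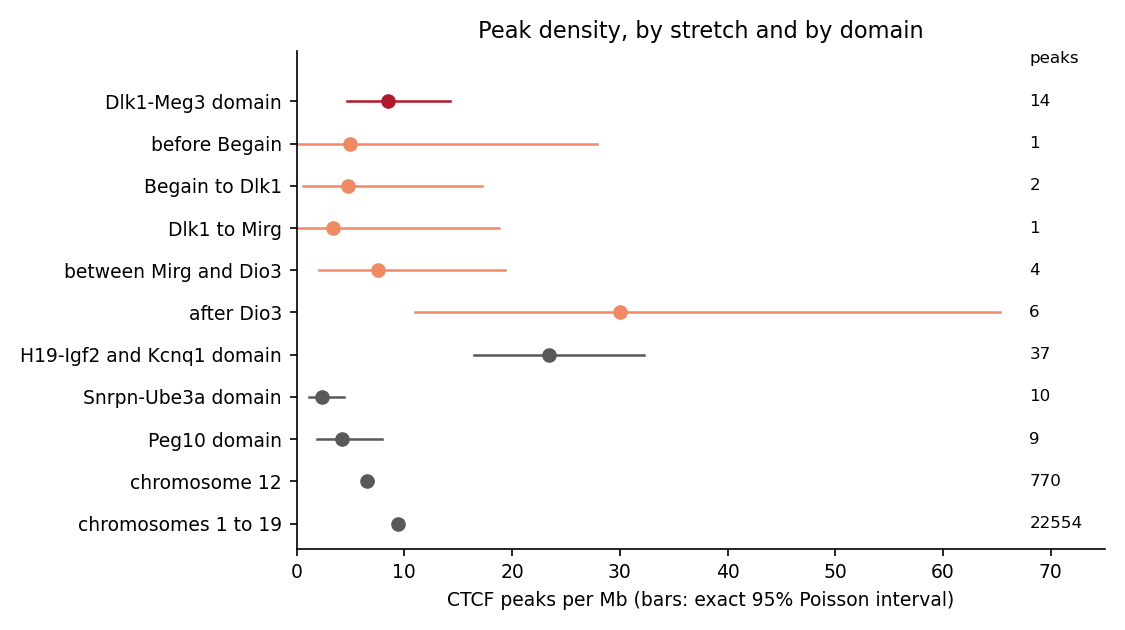
CTCF peaks per Mb (points) with exact 95% Poisson intervals (bars) and the number of peaks at the right, for the Dlk1-Meg3 domain (red), its stretches in order from the Begain side (orange), and other imprinted domains and chromosomes (grey). The domain, at 8.49 per Mb, lies near chromosome 12 at 6.58 and chromosomes 1 to 19 at 9.39, and its 6 peaks after Dio3 stand at 30.0 per Mb.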

How the data were processed

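CTCF ChIP-seq was performed on NIH3T3 cells with inducible CDX2, in 2 libraries with doxycycline, 2 without and 1 input. Per the labels' protocols, a Drosophila chromatin spike-in was added and reads were paired-end, 37 nt long. STAR, Picard and MACS2 and the builds mm10 and dm6 are named in the submitters' processing notes without roles or versions; how peaks were called and merged is not stated there. The authors deposited 1 list of intervals over both conditions, with chromosome, start and end in 3 columns and no score, so nothing in it is normalised and depth per sample is unknown. Positions are counted from 1.

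Intervals were set against NCBI RefSeq genes of GRCm38.p6, the assembly behind mm10. Genes off chromosomes 1 to 19, X and Y and 340 genes placed below 3 Mb, where scaffold positions appear, were left out, which leaves 49603 of 49997. The mitochondrial interval was left out. Peaks were placed by midpoint. The length of a chromosome was counted between its outermost annotated features. Intervals are exact 95% Poisson intervals for counting error only. The functions were checked on made-up intervals with known answers. Named genes were the members, the nearest gene of each peak and the genes bordering the longest empty stretches; genes given for orientation were added after their values were seen. Members, lists and comparison domains were chosen with earlier results of these data known. Python 3.11.15, numpy 2.4.6, pandas 2.3.3 and scipy 1.17.1 were used.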

Additional observations from a re-analysis of the deposited data

How the results depend on the processing

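Of 31 alternative values, 21 were within 1.5 times the count reported, within the 95% interval of the density or, for the longest stretch, within 1% of its length; among them were 5.6 per Mb without flanks, against 8.49, and 10 peaks with flanks of 100 kb. The number of peaks was 7 without flanks, against 14 with 200 kb, and 36 with flanks of 500 kb, where the density was 16.0 per Mb. Keeping intervals at least as wide as the list's median gave 6 peaks, 3.64 per Mb, a longest empty stretch of 564.7 kb against 490.6 kb, 0 members with a peak within 10 kb and 1 peak nearest to a member. Within 25 kb, 2 members had a peak. With protein-coding genes alone, 7 peaks were nearest to a member, against 3. Member gene ends stayed at 0 in each of the 5 alternatives run, of which that with start sites was added after seeing the data, as were the other domains without flanks. No paired analysis was possible because the list carries no replicate, and for the same reason no library was left out. The planned motif count in peaks was not run, since no genome sequence was used here.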

Other observations

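Peaks were more numerous just beyond the proximal flank. Widening the flanks to 500 kb added 18 peaks on the Begain side and 4 on the Dio3 side. Of the 18, 11 lay in the 27.2 kb body of Yy1, a gene for a zinc finger protein of promoters and enhancers that ends 12 kb before the region. They were 173 to 2708 bp wide with a median of 345 bp. On the Dio3 side the added peaks were 220 to 308 bp wide, and the nearest genes were Gm35558, 1700001K19Rik and, for 2 of them, Hsp90aa1, a heat shock protein gene.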
